A study of Mus musculus with 16 samples.

Results

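Redox balance in the pressure-overloaded heart was examined through 10 genes: Nox4, Cybb and Cyba, which encode subunits of the NADPH oxidases, and Sod2, Cat, Gpx3, Nqo1, Hmox1, Gclc and Txnrd1, which encode enzymes of antioxidant defence. The genes were taken by symbol, through the Ensembl identifiers of the deposited count matrix, and all 10 were found among its 55487 rows and among the 18275 genes that passed the filter on low counts. Heart apex RNA came from 16 mice in 4 groups of 4, named by genotype (Ctrl or KO) and surgery (sham or TAC). Ctrl animals are labelled WT and KO animals CARDINAL-KO, a CRISPR/Cas9 deletion of the long noncoding RNA Cardinal (Gm12295) that is not described as limited to any cell type. TAC (transverse aortic constriction) ties the aorta down to a fixed width and raises the pressure against which the left ventricle pumps, and in sham surgery the chest was opened without a ligature. Tissue was taken 4 weeks later. The study used male mice, and neither the strain nor the age stands in the labels.

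NADPH oxidases are membrane enzymes that pass electrons from NADPH to oxygen and release superoxide or hydrogen peroxide. Nox4 and Cybb (also called Nox2) are alternative catalytic subunits that both pair with the small subunit p22phox, the product of Cyba. Nox2 also needs cytosolic subunits and a Rac GTPase and is known best from phagocytes, whereas Nox4 is active without them and is known from cardiomyocytes, fibroblasts and endothelial cells. Superoxide dismutases turn superoxide into hydrogen peroxide, which catalase, glutathione peroxidases and peroxiredoxins remove. Nqo1, Hmox1, Gclc and Txnrd1 are classical targets of NRF2, a transcription factor that raises detoxifying and glutathione-making enzymes under oxidative or electrophilic stress.

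Libraries held 53169437 to 79404714 counts, and 24458 to 26388 genes had at least 1 count. Levels are given as CPM, the read count of a gene normalised for library depth, with TMM scaling of the depths. The deleted gene was low in 7 of the 8 KO libraries, at 0.28 to 0.55 CPM, against 2.69 to 8.02 CPM in the 8 Ctrl libraries. The library labelled KO TAC 4 had 4.55 CPM of Cardinal, which goes against its label. For many, though not all, of the values that include this library, the value without it is also given. Animal numbers in the titles form 2 series whose meaning is not stated: KO TAC 4 and Ctrl TAC 2, 3 and 4 have numbers that begin with 25, and the numbers of the other 12 libraries begin with 3. Cardiomyocyte transcripts were abundant in this heart tissue: all 8 cardiomyocyte markers were detected, with a summed level of 37613 CPM or more in every library.

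TAC raised the oxidase subunit Nox4 and the secreted peroxidase Gpx3 and lowered the mitochondrial dismutase Sod2 in both genotypes. Cybb also rose after TAC in KO hearts. Between KO TAC and Ctrl TAC hearts, Nox4 and Gpx3 were higher in KO TAC, and neither difference was called under every alternative. The 4 NRF2 target enzymes, Cyba and Cat were not called in any comparison in the edgeR fit to all 16 libraries, although Nqo1 and Cat were called after TAC in KO hearts under some alternatives. The DNA before a RefSeq start of each of the 4 called genes is shown first, because these are the genes that moved with surgery. Each stretch lies inside the span given below for its gene, so it is not upstream of the whole annotated gene. Sequences are from RefSeq (GRCm38.p6), read 5′ to 3′ on the strand of the gene, with annotated exons left out and with capitals for any GC box (GGGCGG), AP-1 motif (TGANTCA) or CCAAT box found on either strand.
Nox4, chr7:87246399-87246648, plus strand: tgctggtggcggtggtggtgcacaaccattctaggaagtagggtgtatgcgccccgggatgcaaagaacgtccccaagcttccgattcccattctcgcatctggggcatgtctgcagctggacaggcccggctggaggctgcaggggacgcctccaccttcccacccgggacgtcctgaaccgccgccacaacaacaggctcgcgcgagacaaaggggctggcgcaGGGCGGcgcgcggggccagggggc
Cybb, chrX:9469325-9469574, minus strand: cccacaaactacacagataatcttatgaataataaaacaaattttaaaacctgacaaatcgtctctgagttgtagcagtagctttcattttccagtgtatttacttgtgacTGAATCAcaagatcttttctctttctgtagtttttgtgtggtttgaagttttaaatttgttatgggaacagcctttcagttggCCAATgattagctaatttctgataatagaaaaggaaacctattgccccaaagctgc
Gpx3, chr11:54902604-54902771, plus strand: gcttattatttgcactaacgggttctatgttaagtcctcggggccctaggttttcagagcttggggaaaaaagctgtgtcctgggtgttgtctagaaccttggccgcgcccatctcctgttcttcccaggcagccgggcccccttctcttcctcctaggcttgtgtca
Sod2, chr17:13007589-13007816, plus strand: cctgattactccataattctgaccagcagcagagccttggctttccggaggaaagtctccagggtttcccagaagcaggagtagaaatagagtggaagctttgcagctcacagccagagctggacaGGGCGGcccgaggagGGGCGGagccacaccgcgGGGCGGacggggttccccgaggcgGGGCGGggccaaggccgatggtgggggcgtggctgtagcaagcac

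The 4 stretches differed in these motifs. Nox4 had 1 GC box, Sod2 had 4, Cybb had an AP-1 motif and a CCAAT box, and the printed Gpx3 stretch held none of them. Annotated exons cut the Gpx3 and Sod2 stretches to 168 and 228 bases, whose last bases lie 83 and 23 bases before the RefSeq start. In the whole windows of 250 bases, with the exonic part, Gpx3 also had a GC box and a CCAAT box and Sod2 also had a CCAAT box. Of 32851 whole windows of 250 bases before RefSeq starts of all genes, 32.7% held a GC box, 33.8% a CCAAT box and 6.75% this AP-1 motif. A gene can have more than 1 window, and 8 of the 10 genes were matched, with 10 windows. The motif TGACNNNGC, the core of the antioxidant response element through which NRF2 acts, was in 10.2% of all windows and, among these genes, in a window of Txnrd1. A match is a match of letters and says nothing about binding.

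**Figure D1:**
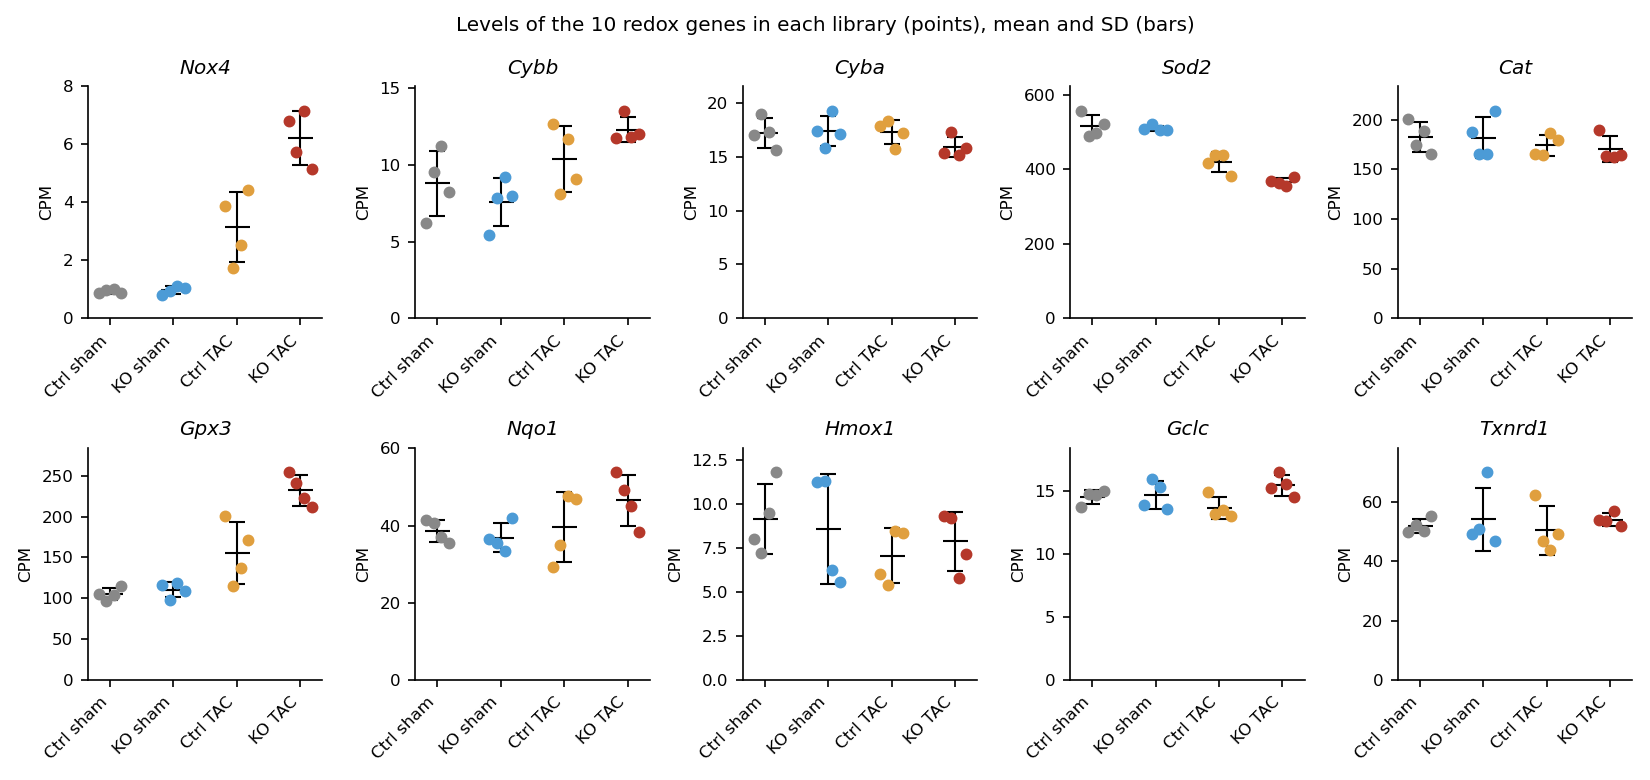
CPM (linear axis from 0) of the 10 genes in each of the 16 libraries, grouped by genotype and surgery. Points are libraries, bars are the group mean and SD (n = 4). The means of Nox4 and Gpx3 step up from sham to Ctrl TAC to KO TAC, that of Sod2 steps down, and the points of Cyba, Cat, Gclc, Hmox1 and Txnrd1 overlap across all groups.

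Nox4 (ENSMUSG00000030562, GRCm38 chromosome 7, 87246096 to 87398710, plus strand) had the lowest level of the 10 genes and the largest change. It was read at 0.86, 0.98, 1.00 and 0.86 CPM in the Ctrl sham libraries and at 0.79, 0.94, 1.10 and 1.05 CPM in those of KO sham. Ctrl TAC libraries had 3.85, 1.75, 2.54 and 4.41 CPM. KO TAC libraries had 6.82, 5.75, 7.15 and 5.16 CPM. Every TAC library was above every sham library, and every KO TAC library was above every Ctrl TAC library, the lowest of which was Ctrl TAC 2. Raw counts behind these values were 44 to 64 in the sham libraries, 117 to 317 in Ctrl TAC and 354 to 466 in KO TAC.

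TAC raised Nox4 3.38-fold in Ctrl hearts (log2 fold change 1.76, SE 0.23, edgeR adjusted p = 3.44e-05). In KO hearts it rose 6.39-fold (log2 fold change 2.68, SE 0.23, edgeR adjusted p = 1.07e-07). KO TAC hearts had 1.98 times the Nox4 level of Ctrl TAC hearts (log2 fold change 0.99, SE 0.21, edgeR adjusted p = 0.0197), whereas KO sham and Ctrl sham hearts differed by 0.07 log2 with a 95% interval from -0.45 to 0.59. The test of whether the 2 genotypes responded differently to TAC gave a difference of 0.92 log2 (SE 0.32) with an unadjusted p of 0.0107 and an edgeR adjusted p of 0.309, so that difference was not called (1.00 log2 without the library labelled KO TAC 4, adjusted p 0.273).

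Without the library labelled KO TAC 4 the KO TAC against Ctrl TAC difference in Nox4 was 1.07 log2 with an adjusted p of 0.0225. It was not called without Ctrl TAC 2 (0.79 log2, adjusted p 0.0541), Ctrl TAC 3 (0.0631), KO TAC 1 (0.0509) or KO TAC 3 (0.0762). Within the animal numbers starting with 3, Ctrl TAC 1 (3.85 CPM) lay below KO TAC 1, 2 and 3 (5.75 to 7.15 CPM). Within those starting with 25, Ctrl TAC 2, 3 and 4 (1.75 to 4.41 CPM) lay below KO TAC 4 (5.16 CPM). KO TAC 4, the only KO TAC library there, had 4.55 CPM of Cardinal, which goes against its label. The order in that series may thus not be one between genotypes. Ctrl TAC 1 is the only Ctrl TAC library of the other series. With the series as a model term the adjusted p was 0.133.

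Cybb (ENSMUSG00000015340, chromosome X, 9435252 to 9487771, minus strand) encodes the phagocyte oxidase subunit Nox2. It had 6.19, 9.50, 11.2 and 8.25 CPM in the Ctrl sham libraries and 5.45, 7.84, 9.19 and 7.94 CPM in those of KO sham. In Ctrl TAC it had 12.7, 8.08, 11.7 and 9.09 CPM, a range that overlapped that of Ctrl sham. In KO TAC it had 11.8, 13.5, 11.8 and 12.03 CPM, and all 4 libraries were above all 4 KO sham libraries. Cybb rose 1.62-fold after TAC in KO hearts (log2 fold change 0.69, SE 0.18, edgeR adjusted p = 0.00702). It was not called there with the animal numbers that begin with 33 as a model term (adjusted p 0.0842). In Ctrl hearts the log2 fold change of 0.24 did not pass (SE 0.18, edgeR adjusted p = 0.396), and between KO TAC and Ctrl TAC it was also 0.24 (SE 0.18, edgeR adjusted p = 0.501). The difference between the 2 TAC responses was 0.45 log2 and was not called (SE 0.25, edgeR adjusted p = 0.536). Without the library labelled KO TAC 4 the 3 comparisons that include it gave 0.70 (adjusted p 0.0143), 0.26 (adjusted p 0.545) and 0.46 log2 (adjusted p 0.554).

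Cyba (ENSMUSG00000006519, chromosome 8, 122424776 to 122432930, minus strand), which encodes the subunit that both oxidases share, stayed in a narrow band. Its levels were 15.6 to 19.0 CPM in Ctrl sham, 15.9 to 19.3 in KO sham, 15.7 to 18.4 in Ctrl TAC and 15.2 to 17.3 in KO TAC. The log2 fold change after TAC was 0.0055 in Ctrl (95% interval -0.15 to 0.16) and -0.13 in KO hearts (95% interval -0.29 to 0.02). Levels of the 3 subunits were then compared per kilobase of exon (CPM per kb), since the genes differ in length. The length was that of all annotated exons of a gene together: 8471 bases for Nox4, 5808 for Cybb and 1039 for Cyba. It can exceed the length of any 1 transcript, so the order of genes on this scale rests on that choice. On that scale Cyba was at 16.6 ± 1.34, Cybb at 1.51 ± 0.363 and Nox4 at 0.109 ± 0.00881 in Ctrl sham hearts (SD, n = 4 each). In KO TAC hearts the same 3 levels were 15.3 ± 0.914, 2.12 ± 0.141 and 0.734 ± 0.109 (SD, n = 4 each). The ratio of Cybb to Nox4 per kb was 13.7 ± 2.44 in Ctrl sham, 11.3 ± 1.00 in KO sham, 5.31 ± 1.79 in Ctrl TAC and 2.94 ± 0.548 in KO TAC (SD, n = 4 each), and 2.79 ± 0.557 in KO TAC without the library labelled KO TAC 4 (SD, n = 3). With these lengths Cybb was still the higher of the 2 catalytic subunits in every group, and the ratio was lowest in KO TAC.

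Sod2 (ENSMUSG00000006818, chromosome 17, 13006846 to 13040063, plus strand) encodes the manganese superoxide dismutase of the mitochondrial matrix and had the highest CPM of the 10 genes. It had 556, 487, 497 and 521 CPM in the Ctrl sham libraries and 508, 520, 505 and 505 CPM in those of KO sham. Ctrl TAC libraries had 416, 437, 439 and 381 CPM, and KO TAC libraries had 369, 363, 355 and 379 CPM. All TAC libraries lay below all sham libraries. All KO TAC libraries also lay below all Ctrl TAC libraries, with 381 CPM in the lowest Ctrl TAC and 379 CPM in the highest KO TAC library.

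Sod2 fell by 0.30 log2 after TAC in Ctrl hearts (SE 0.05, edgeR adjusted p = 0.000434), to 0.812 times the sham level. In KO hearts it fell by 0.47 log2 (SE 0.05, edgeR adjusted p = 1.61e-06), to 0.720 times. The KO TAC against Ctrl TAC value was -0.19 log2 (SE 0.05) with an edgeR adjusted p of 0.0543, just short of the threshold, and DESeq2 gave 0.0110. Sham groups differed by -0.016 log2 (95% interval -0.13 to 0.09), and the difference between the TAC responses was -0.17 log2 (SE 0.07, edgeR adjusted p = 0.384). Leaving out the library labelled KO TAC 4 gave a difference from Ctrl TAC of -0.21 log2 (adjusted p 0.0679) and one between the TAC responses of -0.19 log2 (adjusted p 0.374).

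Cat (ENSMUSG00000027187, chromosome 2, 103453849 to 103485160, minus strand) encodes catalase, the hydrogen peroxide-degrading enzyme of peroxisomes. Its levels were 166 to 201 CPM in Ctrl sham, 165 to 209 in KO sham, 165 to 187 in Ctrl TAC and 163 to 190 in KO TAC, so that all 4 groups overlapped. After TAC the log2 fold change was -0.07 in Ctrl (95% interval -0.24 to 0.10) and -0.10 in KO hearts (95% interval -0.26 to 0.07). With the animal numbers that begin with 33 as a model term, however, the KO value was -0.26 log2 and Cat was called (adjusted p 0.0315). Per kb of exon, Cat was at 69.9 ± 5.90 CPM in Ctrl sham hearts, Gpx3 at 57.8 ± 4.18 and Sod2 at 51.5 ± 3.05 (SD, n = 4 each). The lengths used, over all annotated exons, were 2613 bases for Cat, 1813 for Gpx3 and 10008 for Sod2. The order of these genes rests on those lengths, and by CPM Sod2 was the highest. In KO TAC hearts the order was Gpx3 at 128 ± 10.5, Cat at 65.1 ± 4.997 and Sod2 at 36.6 ± 1.00 CPM per kb (SD, n = 4 each), and the order was the same without the library labelled KO TAC 4, with 132 ± 8.83, 65.9 ± 5.85 and 36.2 ± 0.688 (SD, n = 3 each).

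Gpx3 (ENSMUSG00000018339, chromosome 11, 54902453 to 54910377, plus strand) encodes the secreted glutathione peroxidase of plasma. It had 105, 96.2, 103 and 115 CPM in the Ctrl sham libraries and 116, 98.2, 119 and 108 CPM in those of KO sham. Ctrl TAC libraries spread widely, at 201, 114, 137 and 171 CPM. KO TAC libraries had 254, 241, 222 and 211 CPM. Ctrl TAC 2 lay within the sham range, and all KO TAC libraries were above all other libraries.

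Gpx3 rose 1.48-fold after TAC in Ctrl hearts (log2 fold change 0.57, SE 0.13, edgeR adjusted p = 0.00603) and 2.101-fold in KO hearts (log2 fold change 1.07, SE 0.13, edgeR adjusted p = 1.49e-05). It was 1.49-fold higher in KO TAC than in Ctrl TAC (log2 fold change 0.58, SE 0.13, edgeR adjusted p = 0.0338). The sham groups differed by 0.07 log2 (95% interval -0.21 to 0.35). The difference between the 2 TAC responses, 0.50 log2, was not called (SE 0.19, unadjusted p = 0.0162, edgeR adjusted p = 0.337), nor was it without the library labelled KO TAC 4 (0.54 log2, adjusted p 0.316).

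The KO TAC against Ctrl TAC difference in Gpx3 without the library labelled KO TAC 4 was 0.62 log2 with an adjusted p of 0.0374. It was not called without Ctrl TAC 2 (0.0729), Ctrl TAC 3 (0.0854), KO TAC 1 (0.0790), KO TAC 2 (0.0837) or KO TAC 3 (0.0829). Within the animal numbers starting with 3, Ctrl TAC 1 (201 CPM) lay below KO TAC 1, 2 and 3 (222 to 254 CPM). Within those starting with 25, Ctrl TAC 2, 3 and 4 (114 to 171 CPM) lay below KO TAC 4 (211 CPM). As for Nox4, the first series has a single Ctrl TAC library. The only KO TAC library of the second has a Cardinal level that goes against its label. With the series as a model term the adjusted p was 0.136.

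Of the 10 genes, then, 3 were called for TAC in Ctrl hearts, beside 20.0% of all genes tested. In KO hearts 4 were called, beside 34.3%, and 5 without the library labelled KO TAC 4, the fifth being Nqo1. With the animal numbers that begin with 33 as a term the count was also 4, with Cat in place of Cybb. In the fit without KO TAC 4 Nox4 rose by 2.76, Gpx3 by 1.11 and Cybb by 0.70 log2, and Sod2 fell by 0.49 log2. KO sham against Ctrl sham gave no call among the 10 in edgeR or DESeq2, where edgeR called 0% of all genes (2.62% at an unadjusted p under 0.05, and 0 of the 10) and DESeq2 called 4 genes. The deleted gene Cardinal was itself among the genes edgeR did not call there. Its log2 fold change was -2.92 (SE 0.82), and its KO sham and Ctrl sham libraries did not overlap. The SE came from the spread over all groups, in which Cardinal had far libraries at 8.02 (Ctrl TAC 1) and 4.55 CPM (KO TAC 4). The miss of Cardinal is therefore no measure of the test for other genes. Still, a lack of calls between sham groups does not show that these groups were alike. KO TAC against Ctrl TAC gave 2 calls, beside 2.68%, also without the library labelled KO TAC 4, and for the difference between the TAC responses 0 were called in edgeR, beside 0.0109% of all genes, and 0 in DESeq2, which called 133 genes. In that test 3 of the 10 (Nox4, Gpx3 and Sod2) had an unadjusted edgeR p under 0.05, beside 11.1% of all genes. Libraries of KO TAC and Ctrl TAC did not overlap for 3 of the 10 genes (Nox4, Gpx3 and Sod2), beside 10.5% of all genes. Comparisons that share a group share its libraries and are not independent of each other.

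**Figure D2:**
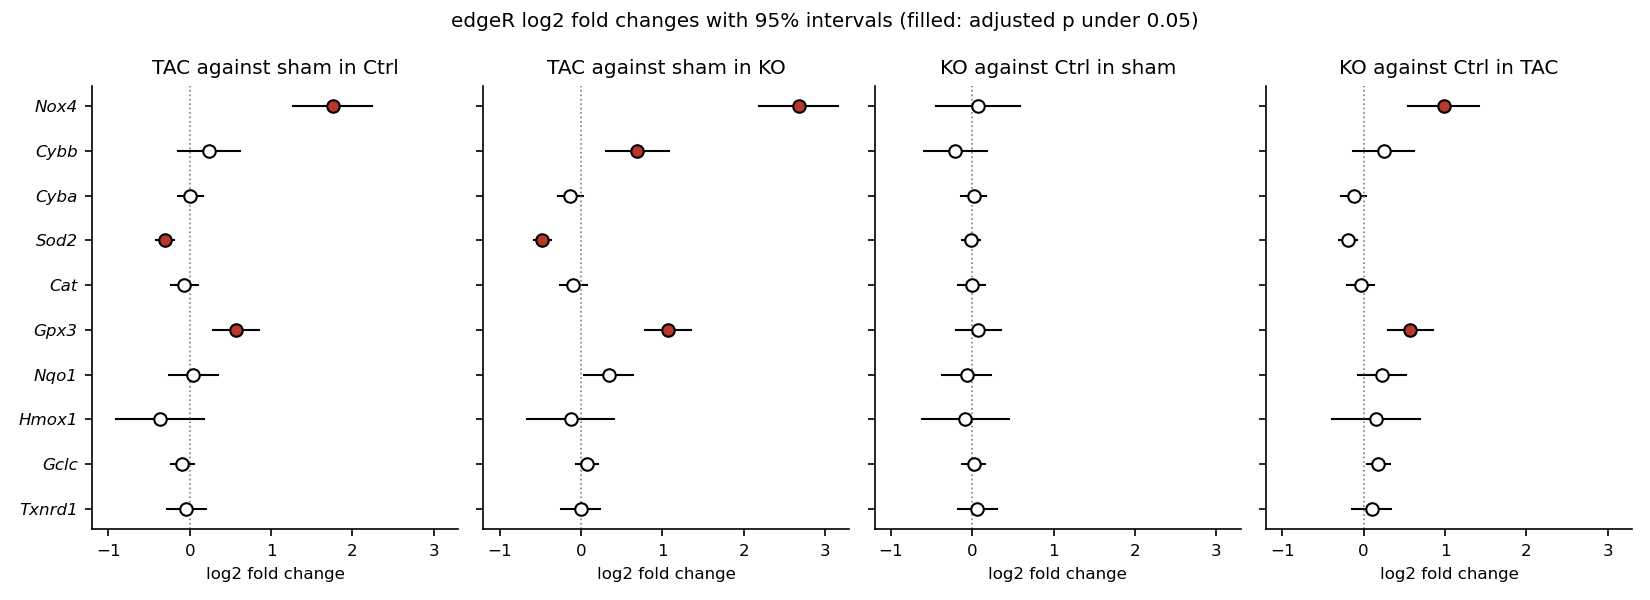
Log2 fold changes of the 10 genes in the 4 comparisons between groups (horizontal axis), with 95% intervals as lines. Filled points passed an edgeR adjusted p under 0.05: Nox4, Gpx3 and Sod2 for TAC in Ctrl hearts, these and Cybb for TAC in KO hearts, none between sham groups, and Nox4 and Gpx3 between KO TAC and Ctrl TAC.

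The NRF2 target Nqo1 (ENSMUSG00000003849, chromosome 8, 107388225 to 107403206, minus strand) encodes a quinone reductase. Ctrl sham libraries had 41.4, 40.7, 36.9 and 35.4 CPM, KO sham libraries had 36.5, 35.5, 33.4 and 42.1 CPM, and the TAC libraries had 29.3, 34.9, 47.7 and 47.0 CPM in Ctrl TAC and 53.8, 49.2, 45.1 and 38.2 CPM in KO TAC. Ctrl TAC libraries fell on both sides of the sham range, and 3 of the 4 KO TAC libraries were above it. The log2 fold change after TAC was 0.04 in Ctrl (SE 0.14) and 0.34 in KO hearts (SE 0.14, edgeR adjusted p = 0.0778), neither called. Nqo1 was called in KO hearts without the library labelled KO TAC 4 (0.42 log2, adjusted p 0.0336), which is its lowest KO TAC library, without Ctrl TAC 1 (adjusted p 0.0283), in the fit to the 2 groups alone (adjusted p 0.0236) and by DESeq2 (adjusted p 0.0486).

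Hmox1 (ENSMUSG00000005413, chromosome 8, 75093621 to 75100589, plus strand) encodes heme oxygenase 1, which breaks down heme. Its levels scattered from 7.23 to 11.8 CPM in Ctrl sham, from 5.54 to 11.3 in KO sham, from 5.41 to 8.45 in Ctrl TAC and from 5.81 to 9.30 in KO TAC. The 95% interval of its TAC response ran from -0.91 to 0.17 log2 in Ctrl and from -0.67 to 0.41 log2 in KO hearts, the widest intervals of the 10 genes in these comparisons.

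Gclc (ENSMUSG00000032350, chromosome 9, 77754535 to 77794485, plus strand) encodes the catalytic subunit of the enzyme that limits glutathione synthesis. It was at 14.5 ± 0.572 CPM in Ctrl sham, 14.7 ± 1.15 in KO sham, 13.6 ± 0.860 in Ctrl TAC and 15.4 ± 0.822 in KO TAC (SD, n = 4 each). Its log2 fold change between the TAC groups was 0.18 (SE 0.07), with an unadjusted p of 0.0157 and an edgeR adjusted p of 0.155. Txnrd1 (ENSMUSG00000020250, chromosome 10, 82833951 to 82897712, plus strand), the cytosolic thioredoxin reductase, was at 52.0 ± 2.47, 54.3 ± 10.7, 50.6 ± 8.24 and 54.1 ± 2.19 CPM in the same order of groups (SD, n = 4 each). KO sham 3 (70.1 CPM) and Ctrl TAC 1 (62.5 CPM) were its highest libraries.

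These 4 enzymes were set beside a list of 35 genes of the NRF2 pathway, all of which passed the filter. After TAC 3 of the 35 rose and 10 fell in Ctrl hearts, where 10.4% of all genes rose and 9.60% fell. Leaving out Ctrl sham 2 or Ctrl TAC 4 left 1 riser there, leaving out Ctrl sham 3 gave 5, and a term for the number series left 5 that fell. In KO hearts 6 rose and 12 fell (8 and 9 without the library labelled KO TAC 4), where 17.8% of all genes rose and 16.5% fell. The median log2 fold change was -0.04 in Ctrl and -0.01 in KO hearts, where the medians over all genes were 0.0043 and -0.0039. The pathway's genes thus did not move one way.

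Small MAF factors, the partners of NRF2 on DNA, were among the risers: Mafk by 0.51 (Ctrl) and 0.77 log2 (KO), and Maff by 0.43 and 0.80 log2. The glutathione S-transferases Gstm1 (-0.74 and -0.78 log2) and Gsta3 (-0.57 and -1.09 log2) fell in both genotypes, and Gstp1 fell by 0.60 log2 in KO hearts, with the reservation that these belong to families of similar genes among which reads can be split. Osgin1 fell by 0.73 log2 in Ctrl hearts, Pgd rose by 0.18 log2 there, and Ephx1 rose by 0.35 log2 in KO hearts. Osgin1 also fell and Pgd also rose in KO hearts in the fit to all libraries. Without the KO TAC library whose Cardinal level goes against its label, Pgd rose by 0.33 log2 in KO hearts (adjusted p 0.000307). Osgin1 was not called in that fit (-0.33 log2, adjusted p 0.139). Genes given for a single genotype were named by their rank there, which does not show that they were unchanged in the other.

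NRF2 itself (Nfe2l2) was not called after TAC (0.13 log2 in Ctrl, adjusted p 0.559, and 0.17 log2 in KO hearts, adjusted p 0.374). Its inhibitor Keap1 fell by 0.18 log2 in KO hearts (adjusted p 0.0231), a call lost without the library labelled KO TAC 4 (adjusted p 0.0603). Bach1, a repressor at the same DNA elements and of Hmox1 in particular, fell by 0.41 (Ctrl) and 0.53 log2 (KO) (adjusted p 0.00394 and 0.000226). Gclm, the regulatory partner of Gclc, fell by 0.53 log2 in Ctrl hearts (adjusted p 0.00218) and had -0.24 log2 in KO hearts (adjusted p 0.0941). In KO TAC against Ctrl TAC hearts, where 1.36% of all genes were called higher and 1.32% lower, Maff was higher by 0.49 log2 (adjusted p 0.0466) and Gstp1 lower, at -0.24 log2 (adjusted p 0.0325). With the library labelled KO TAC 4 left out, these were 0.62 (adjusted p 0.0122) and -0.22 log2 (adjusted p 0.0727). Keap1, Gclm, Mafk and Ephx1 share exonic bases with other genes, and whether counting used the strand is not stated, so their values are uncertain. The 10 redox genes share exonic bases with no other annotated gene.

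The oxidase subunits were followed through 16 NADPH oxidase genes, of which 13 passed the filter. In Ctrl hearts 4 rose after TAC and 0 fell, with a median of 0.24 log2, where 10.4% of all genes rose. That count was 1 without Ctrl sham 1, Ctrl sham 2, Ctrl TAC 3 or Ctrl TAC 4 and in the fit to the 2 groups alone, and 2 without Ctrl TAC 2. In KO hearts 6 rose and 0 fell, also without the library labelled KO TAC 4, with a median of 0.44 log2, where 17.8% of all genes rose. Besides Nox4 and Cybb, the risers in KO hearts included the cytosolic Nox2 partners Ncf1 (0.84 log2, adjusted p 5.04e-05) and Ncf4 (0.88, adjusted p 0.00278) and Rac2 (0.90, adjusted p 0.00187), the Rac form of blood cells. In Ctrl hearts Ncf1 and Ncf4 rose by 0.40 and 0.70 log2 (adjusted p 0.0289 and 0.0251), and Rac2 had 0.57 log2 (adjusted p 0.0559).

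Rac1, the widely expressed form, had -0.07 and -0.02 log2 after TAC in Ctrl and KO hearts (adjusted p 0.273 and 0.772). Ncf4 was scarce, with 0.852 ± 0.100 CPM in Ctrl sham libraries and 1.75 ± 0.369 CPM in those of KO TAC (SD, n = 4 each). Nox1 had 6 to 21 counts per group of 4 libraries and was not tested, and Nox3 had 0 counts in all 16 libraries. Between the TAC groups only Nox4 of the 13 was called, and the largest other value was 0.42 log2 for Rac2 (adjusted p 0.258). Ncf1 and Rac1 overlap exons of neighbouring genes on the other strand.

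Summed macrophage and fibroblast markers rose after TAC in the same libraries, and the endothelial markers gave no call. Summed macrophage markers were at 232 to 301 CPM in Ctrl sham, 226 to 287 in KO sham, 323 to 376 in Ctrl TAC and 323 to 449 in KO TAC. Of the 12, 7 rose in Ctrl and 10 in KO hearts, where 10.4% and 17.8% of all genes rose. Between KO TAC and Ctrl TAC none of the 12 was called higher and Cd163 was called lower, while 10 of the 12 had log2 fold changes above 0 (median 0.16 log2), and the summed means were 390 and 357 CPM. Neutrophil markers summed to 3.25 CPM or less in every library, and Ly6g, which defines the cell, was at 0 in all 16. Fibroblast markers summed to 559 to 643 CPM in Ctrl sham, 576 to 608 in KO sham, 862 to 1289 in Ctrl TAC and 1476 to 1610 in KO TAC. Of these 8 markers 4 rose after TAC in Ctrl and 7 in KO hearts, beside the same shares of all genes. Between KO TAC and Ctrl TAC, where 1.36% of all genes were called higher, 2 (Postn and Col1a2) were higher in KO TAC. With the library labelled KO TAC 4 left out it was 1, Postn (1.25 log2), where Col1a2 had 0.42 log2 (adjusted p 0.0507). The others, not called in that fit, were Dcn (0.43), Col1a1 (0.36), Lum (0.36), Tcf21 (0.16), Pdgfra (0.07) and Dpt (-0.05 log2). The summed level thus does not stand for each marker alike. Endothelial markers summed to 642 to 821 CPM over all libraries, with median log2 fold changes after TAC of 0.025 in Ctrl and 0.016 in KO hearts. Smooth muscle and pericyte markers summed to 983 to 1019 CPM in Ctrl sham, 899 to 985 in KO sham, 803 to 893 in Ctrl TAC and 759 to 880 in KO TAC. Of these 7 markers, 2 rose and 1 fell in Ctrl hearts, and 3 rose and 1 fell in KO hearts. In bulk tissue, more cells of a type and more RNA per cell cannot be told apart, and the part of these cells in the Nox4, Gpx3 and Cybb results was not tested.

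**Figure D3:**
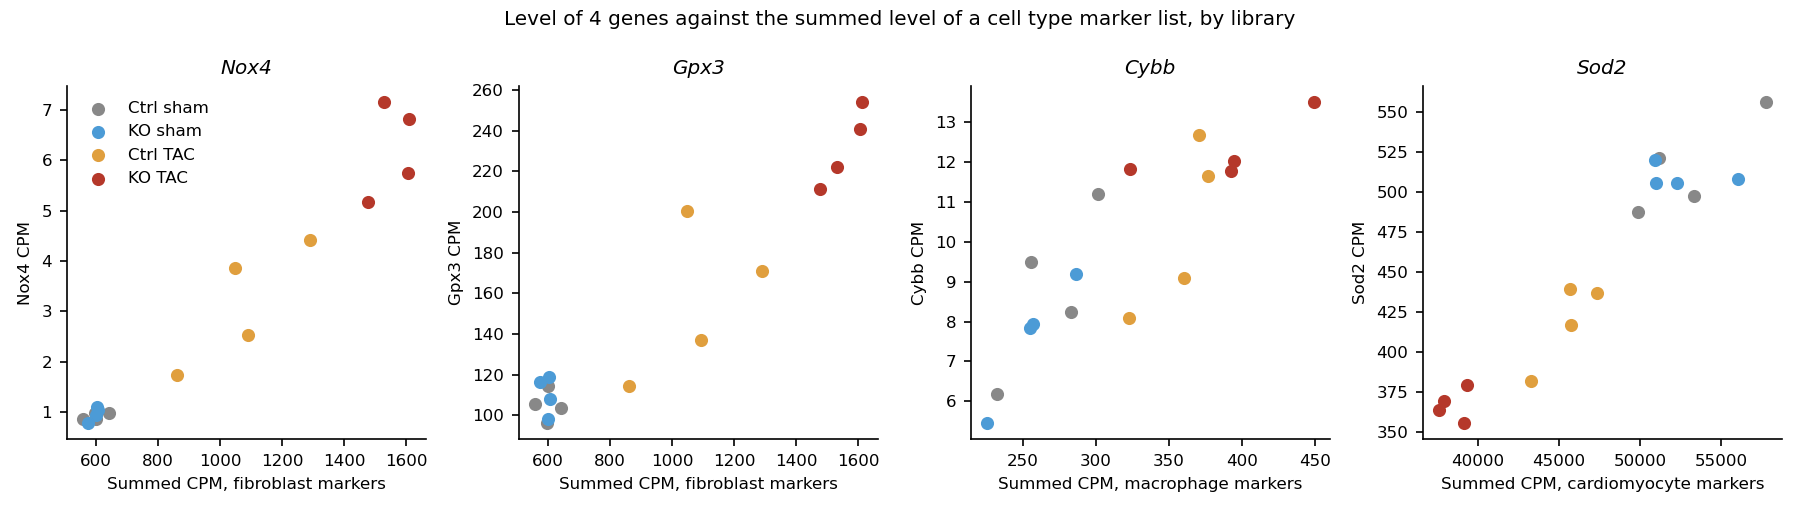
Level of Nox4, Gpx3, Cybb and Sod2 (vertical axis, CPM) against the summed CPM of fibroblast, fibroblast, macrophage and cardiomyocyte markers (horizontal axis), with 1 point per library coloured by group; axes do not start at 0. Nox4 and Gpx3 are highest in the KO TAC libraries, where fibroblast markers are at 1476 to 1610 CPM, and by group Sod2 and the cardiomyocyte markers are both lowest in KO TAC.

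Enzymes that act on superoxide and peroxide were examined as a list of 28, all tested. After TAC 5 rose and 4 fell in Ctrl hearts, and 9 rose and 11 fell in KO hearts (8 and 11 without the library labelled KO TAC 4), with a median of -0.04 log2 in each. A term for the number series left 2 that fell in Ctrl hearts. Of all genes, 10.4% rose and 9.60% fell in Ctrl hearts, and 17.8% rose and 16.5% fell in KO hearts. A division by place in the cell was made after these values were seen and is given as a description only. The 8 enzymes placed as mitochondrial (Sod2, Prdx3, Prdx5, Txn2, Txnrd2, Glrx2, Glrx5 and Msrb2) all fell in KO hearts, by 0.24 to 0.48 log2, and 3 of them fell in Ctrl hearts. Gpx1, of cytosol and mitochondria, was not placed among them and rose by 0.80 log2 in KO hearts. The 5 placed as secreted or in the endoplasmic reticulum (Gpx3, Sod3, Gpx7, Gpx8 and Prdx4) all rose in KO hearts, by 0.24 to 1.07 log2, and 3 of them rose in Ctrl hearts. Without the library labelled KO TAC 4 the 8 still fell, and 4 of the 5 rose, Prdx4 having an adjusted p of 0.125. Enzymes placed in neither group included Gpx4, Msra and Msrb3, none of which was called after TAC in KO hearts. Their values without the library labelled KO TAC 4 were 0.08, 0.03 and 0.11 log2. The common direction within each group thus rests on which enzymes were placed in it.

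Among the mitochondrial enzymes, Prdx3, the main peroxiredoxin of the matrix, fell by 0.22 (Ctrl) and 0.35 log2 (KO) (adjusted p 0.00784 and 9.84e-05). Msrb2, which repairs oxidized methionine, fell by 0.30 and 0.48 log2 (adjusted p 0.00158 and 8.32e-06). Prdx5 had -0.05 log2 in Ctrl (adjusted p 0.584) and fell by 0.35 log2 in KO hearts (adjusted p 5.15e-05), and Prdx5 and Glrx5 were lower in KO TAC than in Ctrl TAC (-0.25 and -0.23 log2, adjusted p 0.0210 and 0.0337), the latter not without the library labelled KO TAC 4 (adjusted p 0.0692). The cytosolic dismutase Sod1 also fell, by 0.22 and 0.34 log2 (adjusted p 0.00916 and 0.000140). Prdx5 and Txnrd2 share exonic bases with a gene on the other strand.

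On the other side, the extracellular dismutase Sod3 was at 28.2 ± 2.47 CPM in Ctrl sham, 35.1 ± 2.53 in Ctrl TAC and 43.9 ± 2.74 in KO TAC (SD, n = 4 each). Sod3 rose by 0.32 (Ctrl) and 0.69 log2 (KO) (adjusted p 0.00241 and 3.88e-07), and was higher in KO TAC than in Ctrl TAC by 0.32 log2 (adjusted p 0.0184). Gpx1, the glutathione peroxidase of cytosol and mitochondria, rose by 0.53 and 0.80 log2 (adjusted p 0.000213 and 1.13e-06), which sets it apart from the mitochondrial enzymes above.

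**Figure D4:**
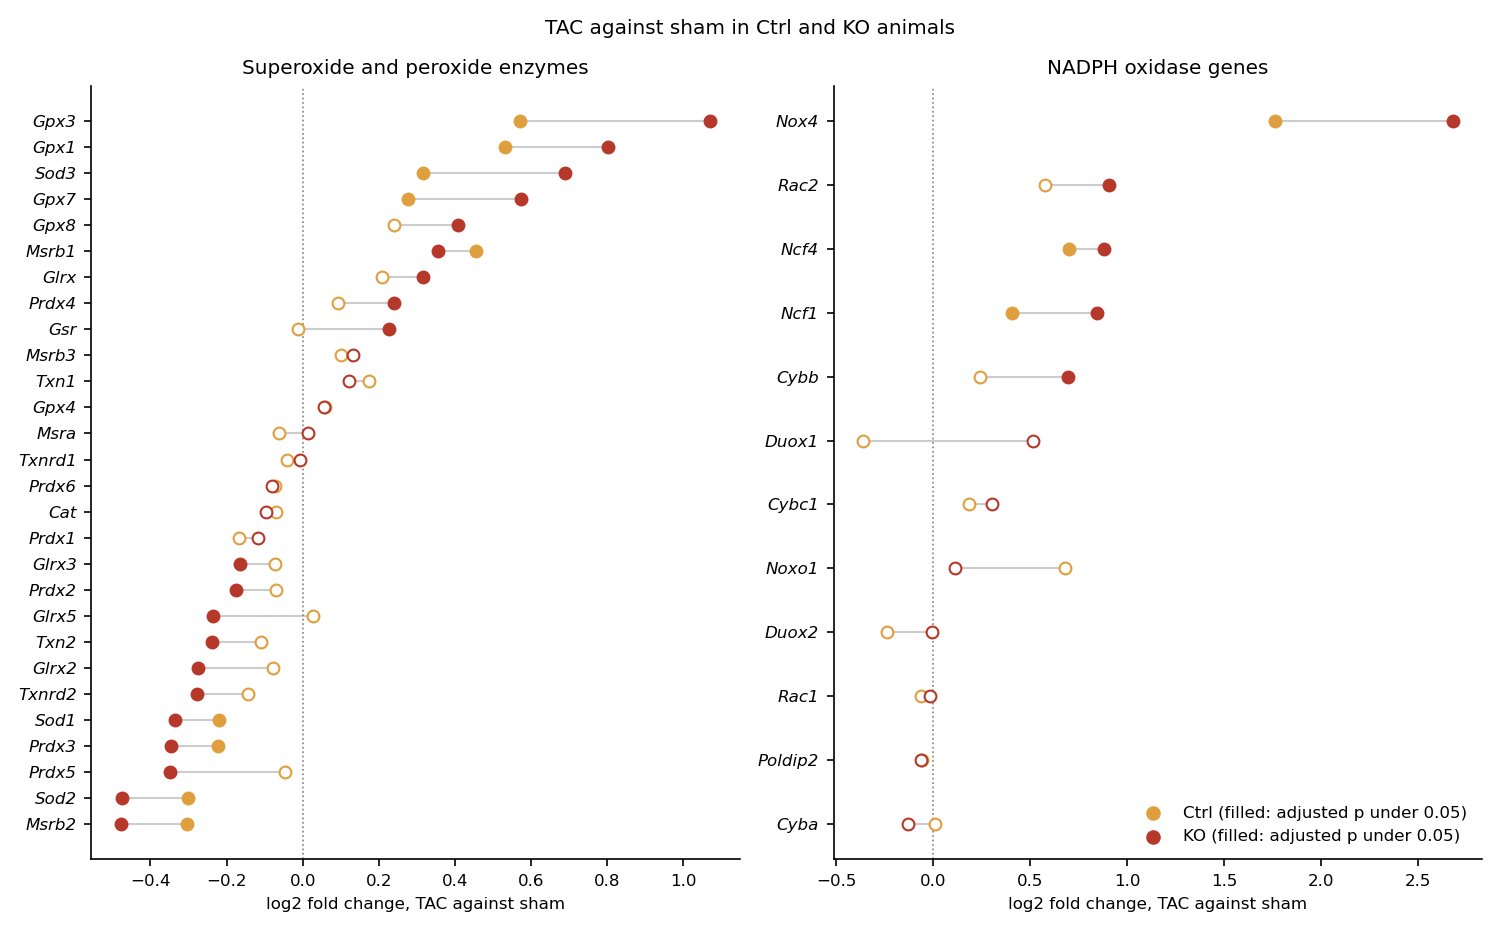
Log2 fold change after TAC (horizontal axis) of 28 superoxide and peroxide enzymes and 12 of the 13 tested NADPH oxidase genes, in Ctrl (yellow) and KO (red) hearts, ordered by the KO value; filled points passed an edgeR adjusted p under 0.05. Gpx3, Gpx1 and Sod3 stand at the top of the enzymes and Msrb2 and Sod2 at the bottom, and Nox4 stands at the top of the oxidase genes with Cyba at the bottom.

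Cardiomyocyte markers fell along with the enzymes placed as mitochondrial. Their summed level was 49868 to 57762 CPM in Ctrl sham, 50952 to 56065 in KO sham, 43253 to 47366 in Ctrl TAC and 37613 to 39313 in KO TAC, and 5 of the 8 fell in Ctrl and 6 in KO hearts. Of all genes, 9.60% fell in Ctrl and 16.5% in KO hearts. The part of the cardiomyocyte marker fall in the Sod2 result was not tested. The genes whose levels tracked Sod2 most closely over the 16 libraries, of 10160 searched by the root mean square difference of centred log2 CPM, were Cs (citrate synthase, 0.0357), Uqcrc1 (a subunit of respiratory complex III, 0.0380) and Atp5a1 (a subunit of ATP synthase, 0.0418), where the root mean square of Sod2 about its own mean was 0.213. For Gpx3 (0.490) near genes included Bace2 (0.142) and Igfbp6 (0.142). For Nox4 (1.17) they were Lox (lysyl oxidase, a collagen cross-linking enzyme, 0.231), Frzb (a secreted WNT antagonist, 0.282) and Fibin (0.287).

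Gpx3 and Txnrd1 share a feature that the choice of genes did not use, the amino acid selenocysteine at the active site, encoded by a TGA codon that would elsewhere stop translation. The coding stretch around it is shown for both and for 3 relatives to set side by side enzymes that moved differently, from GENCODE M21 transcripts (GRCm38), 5′ to 3′, with the selenocysteine codon in capitals.
Gpx3, codon 73 of 226, chr11:54907256-54907258, plus strand: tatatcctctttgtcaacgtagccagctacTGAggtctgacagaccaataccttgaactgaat
Gpx1, codon 47 of 201, chr9:108339451-108339453, plus strand: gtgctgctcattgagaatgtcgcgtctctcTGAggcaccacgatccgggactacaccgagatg
Gpx4, codon 129 of 253, chr10:80054737-80054739, plus strand: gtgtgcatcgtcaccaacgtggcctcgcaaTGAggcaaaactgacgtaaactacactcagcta
Txnrd1, codon 612 of 613, chr10:82896037-82896039, plus strand: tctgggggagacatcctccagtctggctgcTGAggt
Txnrd2, codon 526 of 527, chr16:18477772-18477774, plus strand: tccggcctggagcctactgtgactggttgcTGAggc

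For each gene the transcript with the longest coding sequence was used, so codon numbers and the place in the protein rest on that choice. In these transcripts the peroxidases carry the codon in the first part or the middle of the protein, with 124 to 154 codons after it. The reductases carry it next to last, with 1 codon after it. Of these 5, Gpx3 and Gpx1 rose after TAC in both genotypes, Txnrd2 fell in KO hearts (-0.28 log2, adjusted p 0.00416), and Gpx4, which protects membranes from lipid peroxides, was not called (0.06 and 0.05 log2, adjusted p 0.547 and 0.517). Of 21 selenoprotein genes tested, 8 rose and 0 fell in Ctrl hearts, and 9 rose and 5 fell in KO hearts, including Selenoo (-0.35 log2) and Selenok (-0.21 log2). The shares of all genes that rose and fell were 10.4% and 9.60% in Ctrl and 17.8% and 16.5% in KO hearts. The 8 risers in Ctrl hearts became 5 in the fit to the 2 groups alone. The 0 that fell in Ctrl hearts became 1 to 3 under 12 of 25 alternatives (3 in DESeq2 and 2 without Ctrl TAC 3 or KO TAC 2). The 5 that fell in KO hearts became 3 without KO TAC 3 and 2 with numbers beginning with 33 as a term, and were 5, with 8 risers, without the library labelled KO TAC 4. Dio2 and Gpx3 were higher in KO TAC than in Ctrl TAC. Dio2 and Selenoo overlap exons of another gene on the other strand.

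Cat was also set beside 30 peroxisome genes. After TAC 1 rose and 8 fell in Ctrl hearts (median -0.11 log2), and 0 rose and 19 fell in KO hearts (median -0.22 log2). Without the library labelled KO TAC 4 these were 1 and 16, and a term for the number series left 5 that fell in Ctrl hearts. The shares of all genes that rose and fell were 10.4% and 9.60% in Ctrl and 17.8% and 16.5% in KO hearts. Ech1, an enzyme of fatty acid oxidation, fell by 0.80 (Ctrl) and 1.19 log2 (KO). Pex6, part of the machinery that recycles the import receptor, and Crat, carnitine acetyltransferase, fell by 0.75 and 0.69 log2 in KO hearts. Both were also lower in KO TAC than in Ctrl TAC (Pex6 -0.50 log2, adjusted p 0.00731, and Crat -0.27 log2, adjusted p 0.0262). Catalase, with -0.10 log2 in KO hearts (adjusted p 0.378), was not among these genes, and was called with the term for numbers beginning with 33, as given above. Crat shares exonic bases with 2 genes on the other strand.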

How the data were processed

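A single table of raw counts, deposited by the authors, gives reads for each Ensembl gene in each mouse. Per the labels, poly(A) RNA was sequenced as paired 150-base reads, and the submitters' processing notes name cutadapt 2.3, FastQC, HISAT2 2.1.0, edgeR 3.26.1 and GRCm38. The counting program, annotation and use of strand are not given in the sources used here. Identifiers were named with GENCODE M21, which held 99.5% of them, and the others carried 0.00355% of counts.

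Here, counts were filtered with filterByExpr, scaled by TMM and fitted with edgeR 4.0.16 (R 4.3.3, glmQLFit robust, a mean per group over all 16 libraries, glmQLFTest). Genes were called at a Benjamini-Hochberg adjusted p under 0.05 over 18275 genes. The SE is the absolute log2 fold change over the square root of F. All adjusted p values are edgeR's unless DESeq2 is named, and the fit was tested on simulated data. Replicates are separate animals, numbered in accession order, so p-values measure the spread between these animals.

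The 10 genes and the lists were chosen with earlier results of these data known. Besides the 10, genes named were up to 3 risers and 3 fallers per list and comparison (average log2 CPM at least 0), and preset oxidase subunits, NRF2 regulators and related enzymes. The other enzymes named by place in the cell, Cd163 and the fibroblast markers named singly were chosen after their values were seen. Named by these rules, 2 genes are not reported here. For the likeness search genes needed an average log2 CPM of at least 2 (prior count 2). Alternatives were RLE size factors, DESeq2 1.42.0, 2 other filters, an adjusted p under 0.01, 2 model terms from animal numbers, fits to 2 groups, and 17 fits without 1 or 2 libraries. List counts under these alternatives, and listed genes without the library labelled KO TAC 4, were added after seeing the data.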

Additional observations from a re-analysis of the deposited data

Results flagged for a closer look

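In the 44 combinations of a gene (the 10 genes and Cardinal) with a group, 4 had a library whose gap to its nearest neighbour exceeded Dixon's 95% critical value; chance alone gives about 1 in 20. Cat in KO TAC 1 was at 190 CPM where the other KO TAC libraries were at 163 to 164 CPM. Cybb in KO TAC 2 was at 13.5 CPM where the others were at 11.8 to 12.03 CPM. Cardinal in Ctrl TAC 1 was at 8.02 CPM where the other Ctrl TAC libraries were at 2.69 to 3.37 CPM. Cardinal in the library labelled KO TAC 4 was at 4.55 CPM where the other KO TAC libraries were at 0.28 to 0.37 CPM.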

How the results depend on the processing

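No paired analysis was possible because each animal has its own number and the replicate numbers follow accession order. The 10 genes gave 3 calls for TAC in Ctrl hearts under every alternative run, 4 or 5 for TAC in KO hearts, and 0 between sham groups and for the interaction. With a term for numbers starting with 33 the 4 held Cat (-0.26 log2, adjusted p 0.0315) in place of Cybb. Between KO TAC and Ctrl TAC there were 2 calls, where 489 of all genes were called (calls over all genes follow in brackets). These became 0 at an adjusted p under 0.01 (19), with a term for the animal-number series (12) and in the fit to the 2 groups alone (154). They became 1 with a filter of 1 count in any library (285) and with both Ctrl TAC 2 and KO TAC 4 omitted (109). Leaving out 1 library gave 0 to 3. It gave 0 without Ctrl TAC 2 (63), Ctrl TAC 3 (190), KO TAC 1 (258) or KO TAC 3 (84), and 1 without KO TAC 2 (152). DESeq2 (1185) and a filter of 10 counts in every library (602) gave 3. Calls over all genes thus moved in the same fits. Over these alternatives the adjusted p in this comparison was 0.00101 to 0.133 for Nox4, 0.000572 to 0.136 for Gpx3 and 0.0110 to 0.238 for Sod2, all with unchanged direction; the cause was not tested. Cybb after TAC in KO hearts had 0.000574 to 0.0842.

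Of single-gene values 51 changed sign, none of them called (lowest adjusted p 0.254). With a term for the series Txnrd1 had 0.14 (TAC in Ctrl), 0.058 (TAC in KO), -0.017 (KO TAC against Ctrl TAC) and -0.080 log2 (interaction), Nqo1 -0.031 and Gclc 0.017 (both TAC in Ctrl). With a term for numbers starting with 33, TAC in Ctrl gave Nqo1 -0.0095, Txnrd1 0.010 and Cyba -0.013, TAC in KO gave Hmox1 0.39 and Txnrd1 0.15, and the sham groups gave Nqo1 0.037, Gclc -0.041, Txnrd1 -0.042 and Cat 0.11. With both libraries omitted Cyba had -0.024 (TAC in Ctrl) and Txnrd1 0.014 (TAC in KO), the latter 0.0088 with the filter of 1 count.

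Over the fits without 1 library, values that changed sign spanned -0.039 to 0.055 (Cyba), -0.058 to 0.16 (Nqo1) and -0.16 to 0.022 (Txnrd1) for TAC in Ctrl, and -0.29 to 0.032 (Hmox1) and -0.075 to 0.14 (Txnrd1) for TAC in KO. Between sham groups they spanned -0.027 to 0.051 (Gclc), -0.042 to 0.023 (Sod2), -0.080 to 0.044 (Cat), -0.25 to 0.074 (Hmox1), -0.038 to 0.065 (Cyba) and -0.084 to 0.13 (Txnrd1). Between TAC groups Cat spanned -0.089 to 0.0038, and for the interaction Cat spanned -0.084 to 0.045 and Txnrd1 -0.032 to 0.18.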

Other observations

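Slc7a11, the cystine importer that feeds glutathione synthesis and a member of the NRF2 list, was barely detected, at 21 to 64 counts per group of 4 libraries. It had 1.25 log2 after TAC in Ctrl hearts (SE 0.46, edgeR adjusted p = 0.0626) and 0.71 log2 in KO hearts (SE 0.49, edgeR adjusted p = 0.286). Fth1, the ferritin heavy chain that stores iron, fell by 0.39 log2 after TAC in Ctrl and by 0.38 log2 in KO hearts (edgeR adjusted p = 3.12e-05 and 1.46e-05), with the reservation that processed copies can share its reads. Both were chosen after their values were seen.

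Counts of called genes in the lists, as KO TAC against Ctrl TAC, also moved with the libraries. With a term for the animal-number series, 12 of all genes were called. In the lists 0 oxidase, 0 NRF2 pathway, 0 superoxide and peroxide and 0 selenoprotein genes were called there, and 1 peroxisome gene was. Without Ctrl TAC 2 (63 of all genes called) the same list counts held, 0 in each of the first 4 lists and 1 peroxisome gene. Without the library labelled KO TAC 4 the call of Nox4 among oxidase genes held and 2 superoxide and peroxide enzymes were higher and 1 lower.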
